A study of Mus musculus with 12 samples.

Results

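The genes described here are Hif1a, which encodes the oxygen-regulated alpha subunit of hypoxia-inducible factor 1, and a set of genes known as targets of that factor. The set was chosen by gene name: 10 symbols were named, and the 8 that the deposited expression table lists, out of 11762 genes in all, are Hif1a, Egln1, Bnip3, Bnip3l, Pdk1, Higd1a, P4ha1 and Ero1l. Vegfa and Egln3 were not analysed here. All 8 passed the filter on low values, as did 11745 genes of the table. The authors' rule for listing a gene is unknown, and presence in the table is no result. The names were chosen with earlier results of the same libraries known, in which Bnip3 and a list of glycolysis and hypoxia genes were lower with microparticles alone. The values for microparticle-treated against control cells are therefore descriptions: no p is given for them, and counts past a threshold there, in members or in related genes, support nothing.

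The cells were J774A.1, a mouse line of macrophage character with the labelled strain BALB/c. Their poly(A) RNA was read by sequencing in 4 groups with 3 biological replicates each. The groups are cells given both lipopolysaccharide and microparticles (LPS+MP), LPS alone, microparticles alone (MP), and control cells, which the labels call untreated and the series text mock-treated. All 4 groups are of the same line, and no primary macrophages were measured. Neither the oxygen level of the cultures nor the make, dose or exposure time of the particles is given in the sources used here.

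Hypoxia-inducible factor is a pair of proteins, an alpha subunit made from Hif1a or its relative Epas1 and a constant partner made from Arnt. When oxygen is plentiful, prolyl hydroxylases such as the product of Egln1 mark the alpha subunit for destruction; the mark is not made when oxygen is scarce, and the factor then binds short DNA elements and switches on genes for glycolysis, for the removal of mitochondria and for matrix protein folding. In macrophages LPS is known to raise Hif1a transcripts through NF-kB. Because much of the control lies in protein stability, transcript levels of Hif1a are not a measure of the active factor.

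The element that the factor binds has the core letters ACGTG or GCGTG, and the 250 bases before the annotated start are shown for 5 target genes, to let the letters be set beside genes that were highest in control (Bnip3, Pdk1, Egln1) and genes that were higher in the groups with LPS (P4ha1, Ero1l). The sequences are from RefSeq, build GRCm38.p6, each read 5′ to 3′ on the strand of its gene, with the core letters of either strand in capitals. They cover chr7:138909507-138909756 on the minus strand for Bnip3, chr2:71872974-71873223 on the plus strand for Pdk1, and chr8:124949255-124949504 on the minus strand for Egln1. For P4ha1 the window is chr10:59323046-59323295 on the plus strand, and for Ero1l, named Ero1a in RefSeq, chr14:45318573-45318822 on the minus strand.
Bnip3: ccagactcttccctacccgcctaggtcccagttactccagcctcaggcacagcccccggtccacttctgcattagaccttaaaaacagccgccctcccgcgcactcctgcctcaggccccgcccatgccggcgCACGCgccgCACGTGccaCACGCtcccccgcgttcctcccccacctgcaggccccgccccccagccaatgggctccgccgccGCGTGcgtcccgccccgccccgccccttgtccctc
Pdk1: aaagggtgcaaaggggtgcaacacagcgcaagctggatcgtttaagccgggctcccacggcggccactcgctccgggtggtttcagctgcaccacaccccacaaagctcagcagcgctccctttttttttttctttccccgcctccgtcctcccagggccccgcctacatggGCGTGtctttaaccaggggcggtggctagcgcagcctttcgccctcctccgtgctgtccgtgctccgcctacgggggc
Egln1: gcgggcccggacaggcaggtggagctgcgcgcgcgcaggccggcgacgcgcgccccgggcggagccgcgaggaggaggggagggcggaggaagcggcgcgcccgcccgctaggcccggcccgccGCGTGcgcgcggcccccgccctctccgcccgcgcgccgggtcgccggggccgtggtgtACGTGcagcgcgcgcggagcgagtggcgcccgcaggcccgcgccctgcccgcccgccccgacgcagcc
P4ha1: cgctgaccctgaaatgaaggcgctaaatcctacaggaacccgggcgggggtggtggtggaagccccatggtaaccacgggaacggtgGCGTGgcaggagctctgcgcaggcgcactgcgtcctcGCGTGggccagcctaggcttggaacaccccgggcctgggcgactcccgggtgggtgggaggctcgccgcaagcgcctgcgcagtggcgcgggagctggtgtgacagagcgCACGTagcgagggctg
Ero1l: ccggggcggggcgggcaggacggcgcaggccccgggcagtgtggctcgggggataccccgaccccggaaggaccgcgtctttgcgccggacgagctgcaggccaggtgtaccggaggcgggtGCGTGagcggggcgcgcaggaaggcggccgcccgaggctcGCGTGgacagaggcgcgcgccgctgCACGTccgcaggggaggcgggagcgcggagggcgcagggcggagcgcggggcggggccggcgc

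The Bnip3 window held 5 matches, 2 of which overlap in the palindrome CACGTG, where ACGTG reads on both strands. P4ha1 and Ero1l held 3 each, Egln1 held 2 and Pdk1 held 1. A RefSeq window was found for 7 members, and each of the 7 held at least 1 match. None was listed for Bnip3l. For Hif1a and Higd1a, whose windows are not shown, the RefSeq start lay 6492 and 204 bases from the deposited gene start. Those windows may therefore not be the ones before the measured transcripts. The same letters occurred on either strand in 38.6% of the 32851 windows of this length, ACGTG in 16.6% and GCGTG in 28.2%. The members' windows are rich in G and C, 64.0% to 86.0% against a median of 52.4%, and 66.5% of the 6302 windows in that range held a match. A match describes letters and is not a measured binding site.

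All 10 macrophage markers were listed, with summed levels of 6219 to 6414 CPM in LPS+MP, 7891 to 8955 in LPS, 6292 to 6629 in MP and 6114 to 6773 in control. Single markers differed between groups in both directions: Emr1 had 763 to 782 CPM in LPS+MP, 874 to 1012 in LPS, 68.5 to 74.9 in MP and 32.2 to 37.2 in control, and Lyz2 had 913 to 1088 CPM in LPS+MP, 1855 to 2114 in LPS, 2675 to 2989 in MP and 2244 to 2521 in control. The values are headed RPKM in the table but were read as CPM (reads scaled to a common total per library), since every column has nearly the same sum; in such bulk RNA fewer cells of a type and less RNA per cell cannot be told apart. Among markers of other cell types, the platelet list (3 of 3 genes, mostly Pf4) summed to 383 to 460 CPM in LPS+MP, 525 to 641 in LPS, 298 to 322 in MP and 239.8 to 296 in control. It moved in the same order as Hif1a; its part in the results was not tested. Endothelial markers (2 of 3) stayed at or under 6.85 CPM in sum and the fibroblast gene Pdgfra at or under 10.8 CPM, with the highest values of both in LPS libraries. Those of T cells, B cells, epithelium and red cells were not analysed here. One library stood apart: LPS replicate 2 differed by over 1 (log2) from the mean of the other LPS replicates in 341 genes, against at most 29 in any other library, and its difference followed transcript GC content across genes (Spearman -0.61 over 11411 genes). The same correlation was 0.54 for LPS replicate 1 and 0.45 for LPS replicate 3, each set against a mean that includes LPS replicate 2. In the other groups it ran from -0.30 (MP replicate 1) to 0.26 (control replicate 3). Members' differences that use LPS cells are therefore also given without LPS replicate 2.

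The words rose and fell are kept for genes with an adjusted p under 0.05 in the limma fit across all genes and a difference over 1 on the log2(CPM + 1) scale. These are the limits the series text names. Differences are log2 fold changes ± SE on that scale, and levels are CPM. The labels call the replicates biological without saying which cultures they came from, so the p-values measure the spread between these libraries, which may be technical.

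The plot of levels by library shows that the members did not share a single pattern. Hif1a was lowest in control cells, Bnip3, Bnip3l, Pdk1 and Egln1 were highest there, P4ha1 and Ero1l were higher in the groups with LPS, and Higd1a overlapped between all neighbouring groups.

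**Figure D1:**
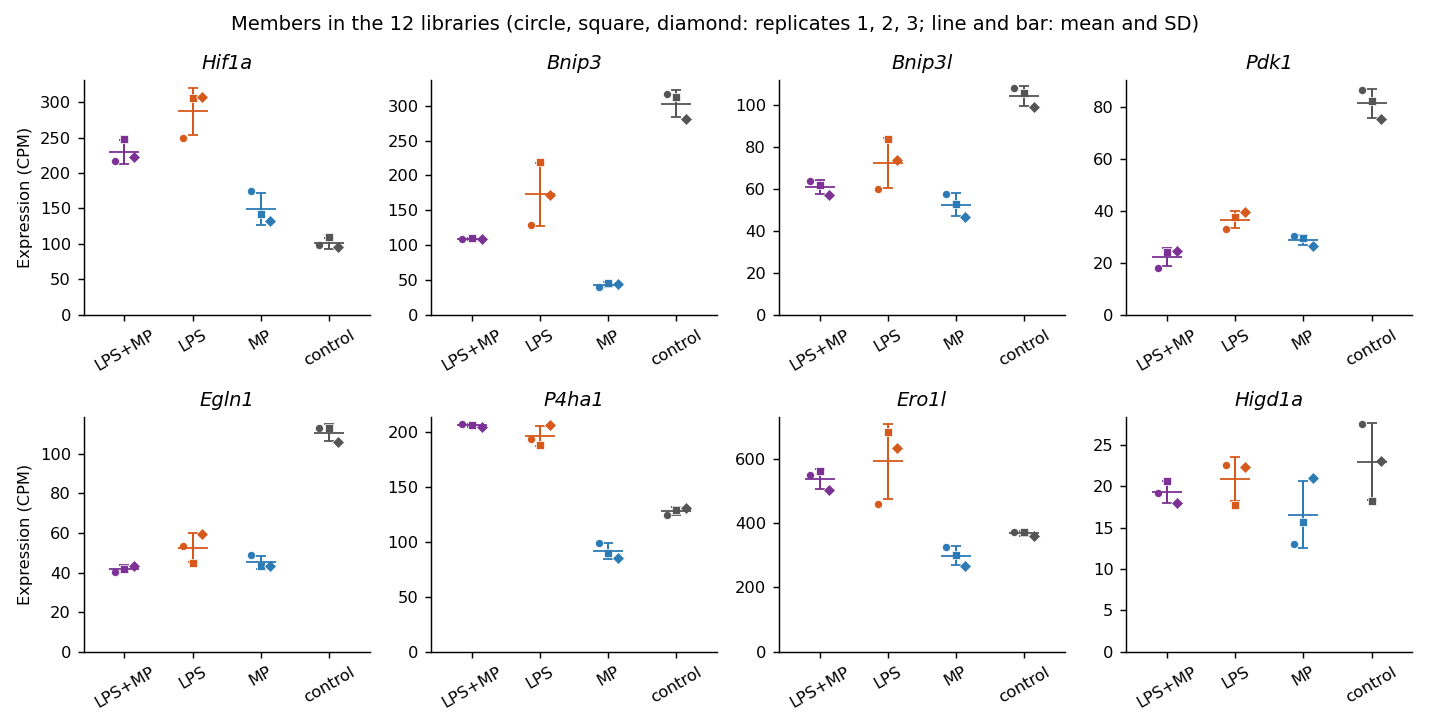
Expression of the 8 members in CPM (y axis, from 0) in LPS+MP, LPS, MP and control libraries, with points for replicates and lines and bars for mean and SD (n = 3). Bnip3 lies between 39.1 and 45.9 CPM in MP libraries and between 281 and 317 CPM in control libraries, and the LPS+MP libraries lie between these.

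Hif1a (ENSMUSG00000021109, chromosome 12, 73901375 to 73947530, plus strand; all gene positions are those of the table, which names no build) is the regulator of the set. Its level was 217, 249 and 223 CPM in LPS+MP, 249, 305.5 and 307 CPM in LPS, 175, 143 and 132 CPM in MP, and 98.0, 109.8 and 95 CPM in control libraries. No neighbouring groups overlapped in the order control, MP, LPS+MP, LPS, although LPS+MP and LPS lay within 1 CPM of each other at their nearest libraries. With LPS alone Hif1a rose 2.82-fold (1.50 ± 0.11, adjusted p = 7.96e-09, limma), and by 1.45 without LPS replicate 2. With MP alone it stood 0.56 ± 0.11 above control. In LPS+MP the difference from LPS was -0.32 ± 0.11 (adjusted p = 0.0316, limma), short of the size threshold. Its adjusted p was not under 0.05 with median-ratio scaling (0.0547), without the variance trend (0.0608), in a fit of both groups alone (0.0539), or without LPS replicate 3 (0.0966), LPS+MP replicate 1 (0.114) or LPS+MP replicate 3 (0.0930).

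Egln1 (ENSMUSG00000031987, chromosome 8, 124908596 to 124949254, minus strand) encodes PHD2, the main hydroxylase that marks the alpha subunit, and is itself a target of the factor. It had 40.1, 42.0 and 43.5 CPM in LPS+MP, 53.2, 44.8 and 59.5 CPM in LPS, 48.9, 43.4 and 43.4 CPM in MP, against 113, 113 and 106 CPM in control libraries. All treated libraries lay far below the controls; MP overlapped with both LPS+MP and LPS. Egln1 fell with LPS (-1.07 ± 0.09, adjusted p = 9.48e-08, limma), but the size threshold was missed without LPS replicate 2 (-0.96, adjusted p = 5.74e-10, limma) and with median-ratio scaling (-0.99). Hif1a and this inhibitor of its product thus stood on opposite sides of control in each treated group.

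Bnip3 (ENSMUSG00000078566, chromosome 7, 138890836 to 138909519, minus strand) and its relative Bnip3l, also called Nix (ENSMUSG00000022051, chromosome 14, 66985239 to 67008877, minus strand), encode mitochondrial outer membrane receptors that hand mitochondria to the autophagy machinery. Bnip3 had 108, 109.8 and 108 CPM in LPS+MP, 128, 219 and 171.5 CPM in LPS, 39.1, 45.9 and 44.7 CPM in MP, and 317, 312 and 281 CPM in control libraries. The 4 groups did not overlap, and MP was the lowest. Within LPS the replicates ran wide, and replicate 2 was 0.56 (log2) above the mean of the others; for the other members that library ran from -0.32 for Egln1 and Higd1a to 0.34 for Ero1l. The difference of LPS from control was -0.84 ± 0.14 (adjusted p = 6.63e-05, limma), under the size threshold. Without LPS replicate 2 it was -1.03 and passed (adjusted p = 5.42e-09, limma), but without LPS replicate 1 it was -0.64. These were the extremes over the 6 libraries left out in turn, and only the fit without LPS replicate 2 passed the size threshold.

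Bnip3l had 63.6, 61.9 and 57.3 CPM in LPS+MP, 60.1, 83.7 and 73.8 CPM in LPS, 57.5, 52.9 and 46.7 CPM in MP, and 108, 106 and 99.1 CPM in control libraries. It too was highest in control, but LPS+MP overlapped with MP and with LPS. Its difference of -0.53 ± 0.11 with LPS (adjusted p = 0.000518, limma) did not reach the size threshold, and was -0.64 without LPS replicate 2. Set per kilobase of the listed transcript, the mean level of Bnip3 was 61.9 CPM per kb in LPS+MP, 98.4 in LPS, 24.6 in MP and 173 in control, and that of Bnip3l 18.8, 22.4, 16.2 and 32.2 CPM per kb in the same groups. The gap between both receptors was therefore narrowest in MP and widest in control cells.

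Pdk1 (ENSMUSG00000006494, chromosome 2, 71873224 to 71903858, plus strand) encodes a kinase that shuts off pyruvate dehydrogenase and so keeps pyruvate from becoming acetyl-CoA in the mitochondrion. It had 18.1, 24.2 and 24.3 CPM in LPS+MP, 32.9, 37.4 and 39.5 CPM in LPS, 30.3, 29.5 and 26.6 CPM in MP, against 86.5, 82.1 and 75.4 CPM in control libraries. No groups overlapped, and here LPS+MP, not MP, was the lowest. The difference of LPS+MP from MP depended on the scaling and on LPS+MP replicate 1, as given below. Pdk1 fell 2.19-fold with LPS (-1.13 ± 0.11, adjusted p = 3.95e-07, limma) and was -1.15 without LPS replicate 2.

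Higd1a (ENSMUSG00000038412, chromosome 9, 121848560 to 121858000, minus strand) encodes a small protein of the inner mitochondrial membrane that acts on the respiratory chain. Its levels were 19.2, 20.6 and 18 CPM in LPS+MP, 22.6, 17.8 and 22.4 CPM in LPS, 13, 15.7 and 21 CPM in MP, and 27.6, 18.2 and 23.1 CPM in control libraries. Neighbouring groups overlapped throughout. It passed neither threshold with LPS (-0.12, 95% interval -0.47 to 0.24, adjusted p = 0.562, limma), and stood at -0.01 without LPS replicate 2.

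P4ha1 (ENSMUSG00000019916, chromosome 10, 59323296 to 59373304, plus strand) encodes the catalytic subunit of collagen prolyl 4-hydroxylase, and Ero1l (ENSMUSG00000021831, chromosome 14, 45283092 to 45318572, minus strand) the oxidase that feeds disulfide formation in the endoplasmic reticulum. P4ha1 had 207, 207 and 205 CPM in LPS+MP, 193, 188.5 and 206 CPM in LPS, 99.1, 89.9 and 85.2 CPM in MP, and 124, 129 and 131 CPM in control libraries. Ero1l had 550.3, 562.5 and 504 CPM in LPS+MP, 461, 683 and 634 CPM in LPS, 327, 300.0 and 268 CPM in MP, and 374, 372 and 359 CPM in control libraries. Both were lowest in MP, then in control, and their LPS+MP and LPS libraries overlapped above the controls. With LPS alone P4ha1 was higher by 0.61 ± 0.07 (adjusted p = 1.42e-06, limma) and Ero1l by 0.67 ± 0.12 (adjusted p = 0.000144, limma), both under the size threshold. Without LPS replicate 2, the highest LPS library for Ero1l, the differences were 0.64 and 0.55. Per kilobase of transcript, the mean level of Bnip3 was the highest of the 8 genes in control cells (173 CPM per kb, Ero1l 83.4), and that of Ero1l was the highest in LPS+MP, LPS and MP, at 122, 134 and 67.5 CPM per kb.

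Set against control, MP cells show the response to particles without LPS. Hif1a was higher in MP (0.56 ± 0.11). Every other member was lower, with log2 differences of -2.78 ± 0.14 for Bnip3 (6.89-fold lower), -1.47 ± 0.11 for Pdk1, -1.27 ± 0.09 for Egln1, -0.99 ± 0.11 for Bnip3l, -0.49 ± 0.07 for P4ha1, -0.45 ± 0.17 for Higd1a and -0.31 ± 0.12 for Ero1l. Past both thresholds were 3 of 8 members downward and 0 upward, and of all genes tested 1.85% downward and 1.82% upward. By adjusted p alone the counts were 7 and 1 of 8, and the shares 18.3% and 20.6%. The downward count ran from 5 to 7 over the alternatives. Ero1l missed that threshold with a pseudocount of 0.1, quantile normalization, no variance trend or a replicate block, and Higd1a without the variance trend. Each also missed it in some fits with 1 library left out. Since this comparison was in view when the names were chosen, nothing is read from these shares. The members' median was -0.74, and that of all genes 0.02. Bnip3l lay at the edge of the size threshold and was past it without MP replicate 1 (-1.05) or control replicate 3 (-1.02). It was also past it with quantile normalization (-1.02) and with median-ratio scaling (-1.02), where 4 members were past both thresholds downward.

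With LPS alone, as given gene by gene above, 1 of 8 members rose (Hif1a) and 2 fell (Pdk1 and Egln1). Among all genes tested, 8.30% rose and 8.05% fell. By adjusted p alone (limma) 3 members were higher and 4 lower, against 26.6% and 35.6% of all genes. The members' median was -0.32, against -0.08 for all genes. Without LPS replicate 2 the 2 members that fell were Pdk1 and Bnip3. LPS, MP and LPS+MP are compared with the same control libraries, so any offset in those libraries enters each. The control libraries were also part of the difference known when the names were chosen. Counts of LPS against control, in members or in lists, are therefore not independent of that choice.

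Set against LPS, LPS+MP cells show what particles added once LPS was present, in libraries that have no overlap with those of MP and control. No member rose or fell, where 0.630% of all genes rose and 3.89% fell. By adjusted p alone (limma) 4 of 8 members were lower and 0 higher, against 22.2% and 13.0% of all genes. These were Pdk1 (-0.70 ± 0.11, adjusted p = 0.000198), Bnip3 (-0.63 ± 0.14, adjusted p = 0.00218), Hif1a (-0.32 ± 0.11, adjusted p = 0.0316) and Egln1 (-0.31 ± 0.09, adjusted p = 0.0188). Pdk1 and Bnip3 passed that threshold under all alternatives run, and stood at -0.69 and -0.44 without LPS replicate 2; Hif1a and Egln1, at -0.27 and -0.42 without that library, passed it under some alternatives only. Hif1a missed it where listed above, and Egln1 missed it in a fit of both groups alone (adjusted p = 0.0796, limma) and without LPS replicate 3 (0.0844), LPS+MP replicate 1 (0.0726) or LPS+MP replicate 2 (0.0524). The count of 4 lower members thus ran from 2 to 6, with 6 without LPS replicate 1 and 2 in the fit of both groups alone, without LPS replicate 3 and without LPS+MP replicate 1. The intervals of the other members were -0.47 to -0.01 for Bnip3l, -0.07 to 0.22 for P4ha1, -0.37 to 0.13 for Ero1l and -0.46 to 0.24 for Higd1a (log2, 95%). Single LPS libraries moved these values: without LPS replicate 1 Bnip3l stood at -0.36 (adjusted p = 0.00854, limma) and Ero1l at -0.29 (adjusted p = 0.0160, limma), and without LPS replicate 2 they stood at -0.13 and -0.01, P4ha1 at 0.05 and Higd1a at -0.22. The members' median was -0.27, against -0.05 for all genes.

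Set against MP, LPS+MP cells show the response to LPS where particles were present too. Bnip3 rose 2.49-fold (1.31 ± 0.14, adjusted p = 6.98e-07, limma) and P4ha1 2.25-fold (1.17 ± 0.07, adjusted p = 7.01e-10, limma), so 2 of 8 members rose and 0 fell, where 5.71% of all genes rose and 7.88% fell. By adjusted p alone (limma) 4 were higher and 1 lower, against 19.0% and 36.6% of all genes. Both comparisons with MP use the same MP libraries, where Bnip3 and P4ha1 were lowest. Low values of Bnip3 and related genes in MP were known when the names were chosen. The differences and counts of LPS+MP against MP are therefore not independent of that choice. Ero1l was higher by 0.85 ± 0.12 (adjusted p = 1.47e-05, limma) and Hif1a by 0.62 ± 0.11 (adjusted p = 0.000145, limma), both under the size threshold; with median-ratio scaling Ero1l passed it, at 1.00. Pdk1 stood at -0.37 ± 0.11 (adjusted p = 0.0117, limma), but quantile normalization and median-ratio scaling, which moved the median of all genes by 0.12 and 0.13, left -0.18 (adjusted p = 0.182) and -0.23 (adjusted p = 0.0945), and leaving out LPS+MP replicate 1 left -0.24 (adjusted p = 0.0745). Egln1 stood at -0.11 (95% interval -0.31 to 0.09), Bnip3l at 0.22 (-0.01 to 0.45) and Higd1a at 0.23 (-0.13 to 0.58). The same scalings gave 0.31 (adjusted p = 0.0243, limma) and 0.36 (adjusted p = 0.0119, limma) for Bnip3l, and quantile normalization gave 0.45 (adjusted p = 0.0268, limma) for Higd1a. Bnip3l also passed by adjusted p in a fit of both groups alone (0.0229) and with LPS replicate 2 left out of the model (0.0228). The members' median was 0.42, against -0.14 for all genes.

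Against control, LPS+MP cells had more Hif1a (1.18 ± 0.11, a 2.26-fold rise, adjusted p = 9.78e-08, limma). Pdk1 fell 3.57-fold (-1.84 ± 0.11, adjusted p = 8.75e-10, limma), Bnip3 2.77-fold (-1.47 ± 0.14, adjusted p = 1.18e-07, limma) and Egln1 2.61-fold (-1.38 ± 0.09, adjusted p = 3.15e-09, limma). That is 1 of 8 up and 3 of 8 down, beside 8.52% and 12.3% of all genes. By adjusted p alone (limma) 3 were higher and 4 lower, beside 27.7% and 38.6% of all genes. P4ha1 (0.68 ± 0.07), Ero1l (0.55 ± 0.12) and Bnip3l (-0.77 ± 0.11) passed the adjusted p alone, and Higd1a (-0.23, 95% interval -0.58 to 0.13) did not. The control libraries were part of the difference known when the names were chosen. The differences and counts of LPS+MP against control are therefore not independent of that choice.

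**Figure D2:**
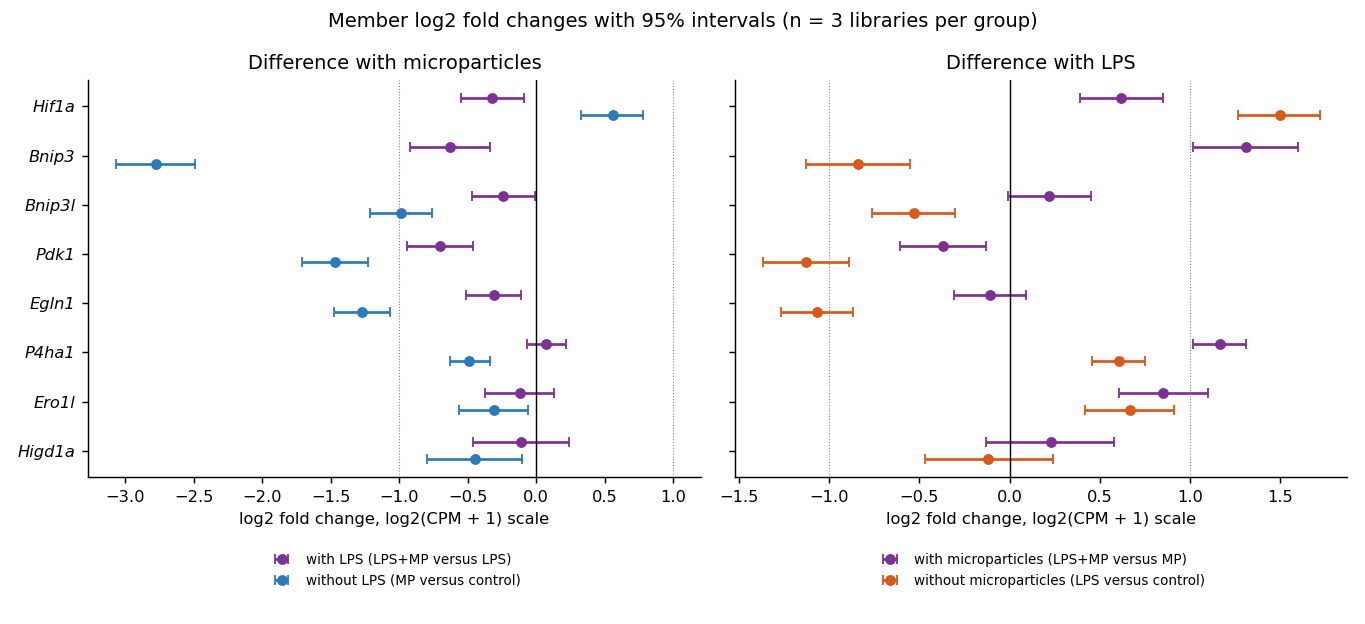
Log2 fold changes of the 8 members on the log2(CPM + 1) scale (x axis) with 95% intervals, for microparticles with and without LPS (left) and for LPS with and without microparticles (right); dotted lines mark the size threshold of 1. Bnip3 lies at -0.63 for LPS+MP against LPS and at -2.78 for MP against control, and at 1.31 for LPS+MP against MP and -0.84 for LPS against control.

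The plot of differences with and without the other agent shows that the 2 treatments did not add up on the log2 scale for most members. The difference with particles in LPS-treated cells minus that in cells without LPS was positive for 7 of 8 members and negative for Hif1a. For Bnip3 it was 2.15 ± 0.19 (adjusted p = 2.32e-06, limma), and 2.34 without LPS replicate 2. By adjusted p alone (limma) it was positive in 5 of 8 members and negative in 1, against 6.45% and 15.5% of all genes; past both thresholds were 1 and 0 of 8, against 1.02% and 3.68%. Beside Bnip3 these were Egln1 (0.96 ± 0.13, adjusted p = 0.000118), Pdk1 (0.76 ± 0.16, adjusted p = 0.00319), Bnip3l (0.75 ± 0.15, adjusted p = 0.00252), P4ha1 (0.56 ± 0.10, adjusted p = 0.000733) and Hif1a (-0.87 ± 0.15, adjusted p = 0.000758). Without LPS replicate 2 these were 0.86 for Egln1, 0.78 for Pdk1, 0.86 for Bnip3l, 0.53 for P4ha1 and -0.83 for Hif1a. Ero1l (0.19, 95% interval -0.16 to 0.54) and Higd1a (0.34, -0.16 to 0.84) did not pass, and stood at 0.30 and 0.24 without that library. The members' median was 0.65, against -0.08 for all genes. The difference of particle effects contains that of MP from control, which was known when the names were chosen. These values are therefore not independent of that choice.

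Other genes of the pathway were taken from lists set by function. Of 17 genes of the factor's own machinery, 15 were in the table. In this list 1 gene rose and 1 fell with LPS, beside 8.30% and 8.05% of all genes. Arnt2, a relative of the partner subunit gene, rose 5.50-fold, and averaged 18.2 ± 0.119 CPM in LPS+MP, 37.1 ± 2.77 in LPS, 12.8 ± 1.35 in MP and 6.0 ± 1.34 in control (SD, n = 3; LPS against control 2.46 ± 0.13, adjusted p = 2.28e-10, limma). Epas1, the gene of the HIF-2 alpha subunit, fell 3.71-fold with LPS, to 32.8, 25.9 and 34.3 CPM against 113.5, 123 and 114 CPM in control libraries (-1.89 ± 0.10, adjusted p = 1.65e-10, limma). It had 19.6, 21.3 and 20.3 CPM in LPS+MP and 73.5, 65.1 and 69.3 CPM in MP libraries. Thus with LPS the transcripts of both alpha subunits moved in opposite directions, Hif1a up and Epas1 down.

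Of 38 further targets outside glycolysis, 28 were in the table. With MP against control 1 was past the thresholds upward and 7 downward (median -0.52), beside 1.82% and 1.85% of all genes. With LPS+MP against LPS 1 rose and 0 fell (median -0.09), beside 0.630% and 3.89% of all genes. With LPS 5 rose and 5 fell (median -0.07), beside 8.30% and 8.05% of all genes. Without LPS replicate 2, the counts were 5 and 6 with LPS and 1 and 1 with LPS+MP against LPS. Plod2, a collagen lysyl hydroxylase gene, had 18.7, 18.1 and 20.1 CPM in LPS+MP, 23.5, 24.3 and 29.7 CPM in LPS, 9.75, 9.55 and 8.68 CPM in MP, and 33.6, 34.3 and 37.8 CPM in control libraries, an order of groups like that of Bnip3. Hilpda, whose product coats lipid droplets, was the target that rose with LPS+MP against LPS (1.20 ± 0.12, adjusted p = 1.78e-06, limma), with 213, 211 and 208.5 CPM in LPS+MP against 94.4, 74.8 and 106 CPM in LPS libraries. P4ha2, which makes the second catalytic subunit of the enzyme of P4ha1, rose with LPS (1.43 ± 0.08, adjusted p = 4.00e-10, limma). For the difference of the particle effects with and without LPS, 5 of 28 were past both thresholds upward and 0 downward (median 0.51, all genes -0.08). The shares of all genes were 1.02% and 3.68%. Among the 5 were Ndrg1 at 2.01 ± 0.18 (adjusted p = 2.51e-06, limma), Plod2 at 1.39 ± 0.15 (adjusted p = 1.16e-05, limma) and the histone demethylase gene Kdm3a at 1.07 ± 0.12 (adjusted p = 1.28e-05, limma). As for the members, that difference contains the earlier known one of MP from control.

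All 19 glycolytic targets were listed. With MP against control 0 were past the thresholds upward and 3 downward (median -0.70), beside 1.82% and 1.85% of all genes; glycolysis genes were among those already known to be lower there, so these counts are no test. The list's counts upward and downward were 0 and 0 with LPS+MP against LPS (median -0.09), and 2 and 0 with LPS (median -0.41, all genes -0.08). Of all genes, 0.630% rose and 3.89% fell with LPS+MP against LPS, and 8.30% and 8.05% with LPS. These shares also stand beside the lists below. The 2 glycolytic genes that rose with LPS were Pfkfb3 (2.38 ± 0.11, adjusted p = 3.41e-11, limma) and Hk2 (1.28 ± 0.07, adjusted p = 2.73e-10, limma). By adjusted p alone (limma) 3 of 19 were higher with LPS and 13 lower, beside 26.6% and 35.6% of all genes. In the difference of particle effects 4 were positive and 1 negative past both thresholds (median 0.75), beside 1.02% and 3.68% of all genes, and this too contains the known difference. Of 16 listed mitophagy genes only the cargo receptor gene Sqstm1 rose with LPS+MP against LPS (1.73 ± 0.07, adjusted p = 2.81e-10, limma), and Pink1 fell with LPS (-1.13 ± 0.10, adjusted p = 1.05e-07, limma). Of 12 listed genes of the pyruvate dehydrogenase system, relatives of Pdk1 included, 0 rose or fell with LPS or with LPS+MP against LPS. Pdk2 fell in LPS+MP against MP (-1.08 ± 0.14, adjusted p = 1.19e-05, limma). Its levels lay near the filter of 1 CPM, at 0.803, 1.22 and 0.981 CPM in LPS+MP and 3.47, 2.99 and 3.15 CPM in MP libraries. In oxidative folding, the setting of P4ha1 and Ero1l, 0 of 8 listed genes passed both thresholds with LPS+MP against LPS, and 6 were lower by adjusted p alone (median -0.39), beside 22.2% of all genes; 7 were lower without LPS replicate 2. With LPS against control 1 of these 8 rose, and by adjusted p alone 5 were higher, beside 26.6% of all genes, and 1 was lower (median 0.40). With LPS+MP against MP, P4hb, the partner subunit of P4ha1, rose by 1.25 ± 0.07 (adjusted p = 1.03e-09, limma). Of the VEGF family and its receptors 5 of 9 were listed, and Vegfb (-1.95 ± 0.20, adjusted p = 4.30e-07, limma) and the co-receptor gene Nrp1 (-1.06 ± 0.09, adjusted p = 3.18e-08, limma) fell with LPS. The remaining list, relatives of Higd1a and a supercomplex factor, had 2 of 4 genes listed and none past both thresholds in any of the 6 comparisons. Outside the 28 further targets, no list's counts past both thresholds changed without LPS replicate 2 in the comparisons that use LPS cells and were refitted for the lists: LPS against control, LPS+MP against LPS and the difference of particle effects.

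**Figure D3:**
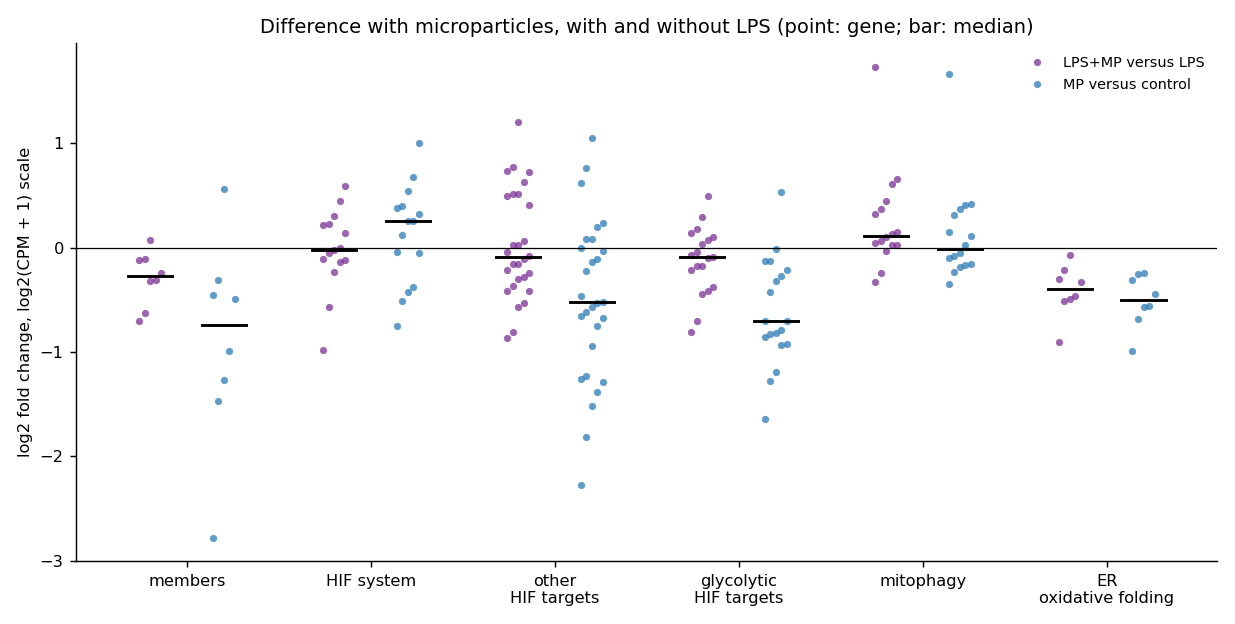
Log2 fold changes (y axis, log2(CPM + 1) scale) of single genes (points) and list medians (bars) for LPS+MP against LPS and for MP against control, in the 8 members and 5 lists of related genes. The median of the members is -0.27 and -0.74, that of the other targets -0.09 and -0.52, and that of the glycolytic targets -0.09 and -0.70 in these comparisons.

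Likeness of pattern was measured as the root mean square difference of centred log2(CPM + 1) over the 12 libraries. It was taken among 9498 other genes with a mean of at least 5 CPM. Genes named Gm followed by digits, or with Rik in the name, were left out. Nearest to Bnip3 were Sdc3 (0.34), Plod2 (0.40), Appl2 (0.42), Cd300lf (0.43) and Srgap3 (0.43). Sdc3, the gene of a cell surface proteoglycan, averaged 508 CPM in LPS+MP, 823 in LPS, 270.3 in MP and 1061 in control. Nearest to Hif1a, and closer in value, were Cd47 (0.12), Kif3c (0.13), Gyk (0.13), Ccdc41 (0.14) and Plgrkt (0.14). Cd47, whose product signals against phagocytosis, averaged 239 CPM in LPS+MP, 287 in LPS, 159.5 in MP and 110.2 in control.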

How the data were processed

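The deposited table holds 1 column per library for 12 libraries, matched to samples by column name. Its columns are headed RPKM but were read as CPM, from the values alone: the deposited columns sum to between 998867 and 999273, and the deposited column headed logCPM, read as log2 CPM over the libraries, differs from the log2 mean of the 12 columns with an SD of 0.20 and no length term. The submitters' processing notes name TopHat2 2.1.1, Trimmomatic 0.36 and FastQC 11.5, and also edgeR, DESeq2 and HTSeq, with no role. Library depth is unknown, so no counting intervals are given. The table names no build; of 11655 transcripts found in GENCODE M21 (GRCm38), 4410 had the same chromosome, start and end. Gene coordinates in the text are the table's; transcript lengths and GC content are from GENCODE M21.

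Genes had to reach 1 CPM in at least 3 libraries, which removed 17, and log2(CPM + 1) was used. The fit by limma 3.58.1 under R 4.3.3 took 4 group means from the 12 libraries, used a variance trend, and had Benjamini-Hochberg adjustment over 11745 genes per comparison; it was tested on simulated data. The same test would serve either unit. All members are named; of each list, up to 3 genes past the thresholds with the smallest adjusted p could be named. Members, lists and tests were chosen with earlier results of these data known. The strand setting of counting is not given. Alternatives were other pseudocounts, filters, scalings and variance models, a replicate block, only the compared groups, no size threshold and leaving out libraries.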

Additional observations from a re-analysis of the deposited data

Results flagged for a closer look

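The difference made by microparticles in LPS-treated cells was set against that in cells without LPS, gene by gene, in 1 model term (limma, adjusted over all genes). It passed an adjusted p under 0.05 in 6 of 8 members, 5 upward and 1 downward, beside 6.45% and 15.5% of all genes, with 2.15 for Bnip3, 0.96 for Egln1, 0.76 for Pdk1, 0.75 for Bnip3l, 0.56 for P4ha1 and -0.87 for Hif1a on the log2 scale. The term contains the difference of MP from control that was known when the members were chosen, so these values are not independent support. For Bnip3 the difference with particles was -0.63 with LPS and -2.78 without, and for Hif1a -0.32 and 0.56. Over the libraries left out in turn, the value for Bnip3 ran between 1.96 and 2.34 and that for Hif1a between -0.97 and -0.76. Groups of 3 libraries are too small for a check of single outlying values.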

How the results depend on the processing

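Whether the replicate numbers of the labels pair the libraries was not settled. Residuals of same-numbered libraries correlated at -0.25 to 0.16 over 18 pairs (median 0.02), and the best match had the same number for 7 of 12. Groups of 3 libraries are too small to exclude a pairing. With a replicate block Bnip3 stood at -2.78 for MP against control and 2.15 for the difference of particle effects, and no call of a member by both thresholds changed. A pseudocount of 0.1, either other filter, no variance trend and fits of the compared groups alone also changed no such call and no direction; losses by adjusted p alone stand beside the results. Without the size threshold 1 member was up and 7 down with MP (all genes 20.6% and 18.3%), and 3 up and 4 down with LPS (26.6% and 35.6%). With LPS+MP against LPS 4 were down (22.2%). With LPS+MP against MP 4 were up and 1 down (19.0% and 36.6%), and with LPS+MP against control 3 up and 4 down (27.7% and 38.6%). For the difference of particle effects 5 were up and 1 down (6.45% and 15.5%). In that difference 2 members, Bnip3 and Egln1, passed with quantile normalization, with median-ratio scaling, and without LPS replicate 3 or MP replicate 1, so the count ran from 1 to 2 over the libraries left out. With LPS 1 member fell under median-ratio scaling. For MP against control 4 members were past both thresholds downward with quantile normalization and with median-ratio scaling. Directions that reversed belonged to values near 0: Higd1a with LPS (-0.12) ran from -0.26 to 0.02 over the libraries left out, with 0.02 without control replicate 1, and Egln1 in LPS+MP against MP was 0.03 with quantile normalization and 0.04 with median-ratio scaling; for the first the cause was not tested, and the scalings moved the median of all genes by 0.12 and 0.13. Omitting LPS replicate 2 from the lists, and from fits of comparisons in which it plays no part, was chosen after seeing the data.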
